A study of Mus musculus with 2 samples.

Results

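The transcripts of 8 cytotoxic granule and effector genes, Gzma, Gzmb, Gzmk, Prf1, Nkg7, Ctsw, Ifng and Fasl, were followed through the lymphocytes of subcutaneous ovarian tumors. They are 8 of the 32285 genes in the feature lists and were chosen by name, for what their products do. The tumors grew from SO cells, a syngeneic ovarian cancer line that lacks p53 and carries Myc and Hras, in female C57BL/6 mice aged 6 to 8 weeks. WT mice were compared with TSK (tight skin) mice, which carry an intragenic duplication in 1 copy of Fbn1 in every tissue of the host and serve as a model of systemic sclerosis. The injected cancer cells were the same line in both. Tumors of 4 mice were pooled into 1 droplet library (10x Genomics, 3′ end counting) for each genotype, with no selection for cell types. With 1 pooled library per genotype there is no replicate, and no test between genotypes was possible. Bracketed ranges are 95% intervals that cover counting error only, not the spread between mice or cells. Each transcript was counted once at its 3′ end, so levels were not divided by gene length.

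Cytotoxic lymphocytes kill by fusing preformed granules with the membrane facing their target. Perforin, the product of Prf1, forms pores through which granzymes, serine proteases such as granzyme A, B and K (Gzma, Gzmb, Gzmk), enter the target cell, and granzyme B starts apoptosis by cutting caspases and their substrates. Nkg7 is a granule membrane protein that takes part in granule release, and Ctsw encodes cathepsin W, a cysteine protease made by NK cells and CD8 T cells. Fas ligand (Fasl) kills through the Fas receptor without granules. Interferon gamma (Ifng), a secreted cytokine, acts through the receptor chains Ifngr1 and Ifngr2, and raises antigen presentation and the T cell attracting chemokines Cxcl9 and Cxcl10. CD8 T cells and NK cells are the main killers of tumor cells, and exhausted CD8 T cells in tumors carry the inhibitory receptors encoded by Pdcd1 and Havcr2, while Tcf7 marks memory-like or stem-like cells.

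All 8 genes are protein coding. In GRCm38 (mm10), Gzma lies on the minus strand at chr13:113093825-113100981 and Gzmk on the same strand at chr13:113171608-113225908, Gzmb is at chr14:56258838-56262260 (minus), Prf1 at chr10:61297833-61304680 (plus), and Ifng at chr10:118441046-118445892 (plus). Nkg7 lies at chr7:43437073-43438249 (plus), Fasl at chr1:161780689-161788495 (minus), and Ctsw at chr19:5465043-5468507 (minus). RefSeq promoter sequences (GRCm38.p6) were matched for 7 of the 8, all but Ctsw. Those of Gzma, Gzmb, Prf1 and Nkg7 follow. Each of these was at least 2-fold higher in 1 lymphocyte class than in another in both libraries. Each also had at least 50 transcripts counted over those classes in each library. Gzmk was 5.24-fold (WT) and 2.23-fold (TSK) higher in CD8 than in CD8-negative T cells. It fell short of that minimum in TSK, with 37 and 7 transcripts. Each run holds the 250 bases before the RefSeq start, 5′ to 3′ on the strand of the gene, namely chr13:113100982-113101231 (minus), chr14:56262335-56262584 (minus), chr10:61297586-61297835 (plus) and chr7:43436888-43437137 (plus). Capitals mark TGTGGT or its reverse complement ACCACA, letters of the motif bound by Runx factors, among them Runx3 of CD8 T and NK cells.
Gzma: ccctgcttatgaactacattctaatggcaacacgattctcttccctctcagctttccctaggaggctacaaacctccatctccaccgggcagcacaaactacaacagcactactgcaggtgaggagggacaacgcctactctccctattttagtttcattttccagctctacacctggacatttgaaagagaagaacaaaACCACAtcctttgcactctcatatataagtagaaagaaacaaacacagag
Gzmb: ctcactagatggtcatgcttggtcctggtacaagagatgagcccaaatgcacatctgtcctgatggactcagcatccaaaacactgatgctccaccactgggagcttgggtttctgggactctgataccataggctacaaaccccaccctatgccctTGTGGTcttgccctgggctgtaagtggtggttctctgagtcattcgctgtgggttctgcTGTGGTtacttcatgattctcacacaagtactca
Prf1: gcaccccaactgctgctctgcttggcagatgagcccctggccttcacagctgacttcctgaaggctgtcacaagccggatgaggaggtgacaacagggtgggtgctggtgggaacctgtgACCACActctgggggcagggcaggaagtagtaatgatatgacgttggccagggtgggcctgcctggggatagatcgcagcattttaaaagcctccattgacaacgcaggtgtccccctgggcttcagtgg
Nkg7: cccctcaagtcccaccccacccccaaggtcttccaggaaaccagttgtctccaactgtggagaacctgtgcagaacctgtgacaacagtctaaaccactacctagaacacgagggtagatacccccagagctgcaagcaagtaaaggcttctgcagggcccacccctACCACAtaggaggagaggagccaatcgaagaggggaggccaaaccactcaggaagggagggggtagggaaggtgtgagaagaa
The letters occurred in 4 of the 7 member promoters, and in 14.0% of 32851 promoters of the same length. Gzmb held TGTGGT at 2 places, with the first base 93 and 34 bases before the start. Gzma, Prf1 and Nkg7 held ACCACA at 1 place each, with the first base 50, 130 and 83 bases before the start. The T-box letters GGTGTGA, searched on both strands, were in 2 of the 7 (Nkg7 and Gzmk, 3.33% of all promoters), the AP-1 letters TGACTCA in 1 (Gzmb, 4.46%), and the Ets letters GGAAGT in 3 (Fasl, Prf1 and Gzmk, 19.7%). No match overlapped another in these windows. A match describes the letters and does not show binding.

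After cells with at least 200 genes, at least 500 UMIs (unique molecular identifiers, 1 per captured transcript) and at most 10% mitochondrial UMIs were kept, and barcodes found in both libraries were left out, 1442 WT and 2961 TSK cells remained. The WT library held 21225411 UMIs and the TSK library 48296765. The libraries shared 263 barcodes, 251 of the WT and 255 of the TSK passing cells before removal, and none of these fell in the lymphocyte classes described here. Over all kept cells the 8 genes gave 9169 UMIs in WT, which is 537 per 1000000 UMIs (CPM) [526, 548], and 3030 UMIs or 66.4 CPM [64.0, 68.8] in TSK. The TSK tumors thus held 8.09-fold less of these transcripts in CPM, a log2 ratio of −3.02. Counted per 1000 cells the values were 6359 UMIs in WT and 1023 in TSK. Each of the 8 was lower in the TSK library, from a log2 ratio of −2.44 for Prf1, through −2.64 for Fasl, −2.68 for Gzmk, −2.88 for Nkg7, −3.002 for Gzma, −3.25 for both Gzmb and Ifng, to −3.34 for Ctsw. Under the upper limits of the study (10000 UMIs and genes), which remove most cancer cells, the summed ratio was −1.74.

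The cells that carry these genes were a smaller share of the TSK library. Cells were named from raw marker UMIs alone, none of them a member, so they are CD8 T-like, CD8-negative T-like and NK-like cells, called here CD8 T cells, CD8-negative T cells and NK cells. CD8 T cells, with T cell receptor or CD3 transcripts and a UMI of Cd8a or Cd8b1, numbered 308 in WT (21.4% of cells [19.3, 23.6]) and 166 in TSK (5.61% [4.80, 6.50]). CD8-negative T cells numbered 121 (8.39% [7.01, 9.94]) and 80 (2.70% [2.15, 3.35]), and NK cells 15 (1.04% [0.583, 1.71]) and 16 (0.540% [0.309, 0.876]). Naming used the full depth of each cell, which was lower in TSK lymphocytes, so a marker can be missed more often there. The shares of the classes are therefore not matched for depth. Together these classes held 19.3% of all UMIs in WT and 1.90% in TSK, but 92.6% and 76.6% of the members' UMIs. A further 10.99% of the TSK members' UMIs were in cells that could not be named and 9.64% in cells with T markers beside those of another lineage, against 2.60% and 3.84% in WT. For Ifng that last group held 27.7% of the TSK UMIs. Cells with cancer markers made up 5.76% of the kept cells in WT and 30.2% in TSK. With 1 pool per genotype, the genotype, the cancer fraction and the digestion of each pool cannot be told apart.

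The T and NK lists named these classes, so their levels there describe the cells and are no check of the names. The T list summed to 2639 CPM in WT and 3476 CPM in TSK CD8 T cells, and NK cells had 1660 and 2733 CPM of the NK list with Cd3e, Cd3d, Cd3g and Trac at 0 by definition. Cancer cell markers (Lgals7, Cdkn2a, Hmga2, Krt18, Krt8) were low but higher in TSK T cells, at 9.69 CPM in WT and 74.4 CPM in TSK CD8 T cells (5 and 4 of 5 detected, with Krt8 at 0 in TSK, and Cdkn2a the most abundant in WT and Lgals7 in TSK), and at 10.9 and 148 CPM in CD8-negative T cells (3 and 4 of 5, with Krt8 at 0 in both and Cdkn2a at 0 in WT). In NK cells they were at 18.6 and 21.4 CPM, with Lgals7 as the only one of the 5 detected. Macrophage and monocyte markers were at 18.9 CPM in WT and 48.4 CPM in TSK CD8 T cells, and at 19.6 and 53.4 CPM in CD8-negative T cells. Neutrophil markers were at 2.20 and 36.3 CPM, and at 0 and 37.0 CPM. Not every list was higher in TSK, as endothelial markers were at 39.6 and 31.1 CPM in CD8 T cells. The part of these markers in the results, that of Spp1 included, was not tested. The TSK lymphocytes were also shallower, with a median of 3241.5 UMIs per CD8 T cell against 6898 in WT, 2690 against 6703 per CD8-negative T cell, and 2211 against 7037 per NK cell. Outside the lymphocytes the members were low. Summed over all 8, macrophages and monocytes had 3.03 CPM in WT and 1.43 CPM in TSK, fibroblast-marker cells 1.32 and 3.001 CPM, and cancer cells 2.09 and 1.39 CPM, which is read here as background. Neutrophils had 0 and 13.9 CPM. Endothelial-marker cells had 59.6 and 27.4 CPM, and in WT 1 cell of 69 held all 34 Gzmb UMIs.

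**Figure D1:**
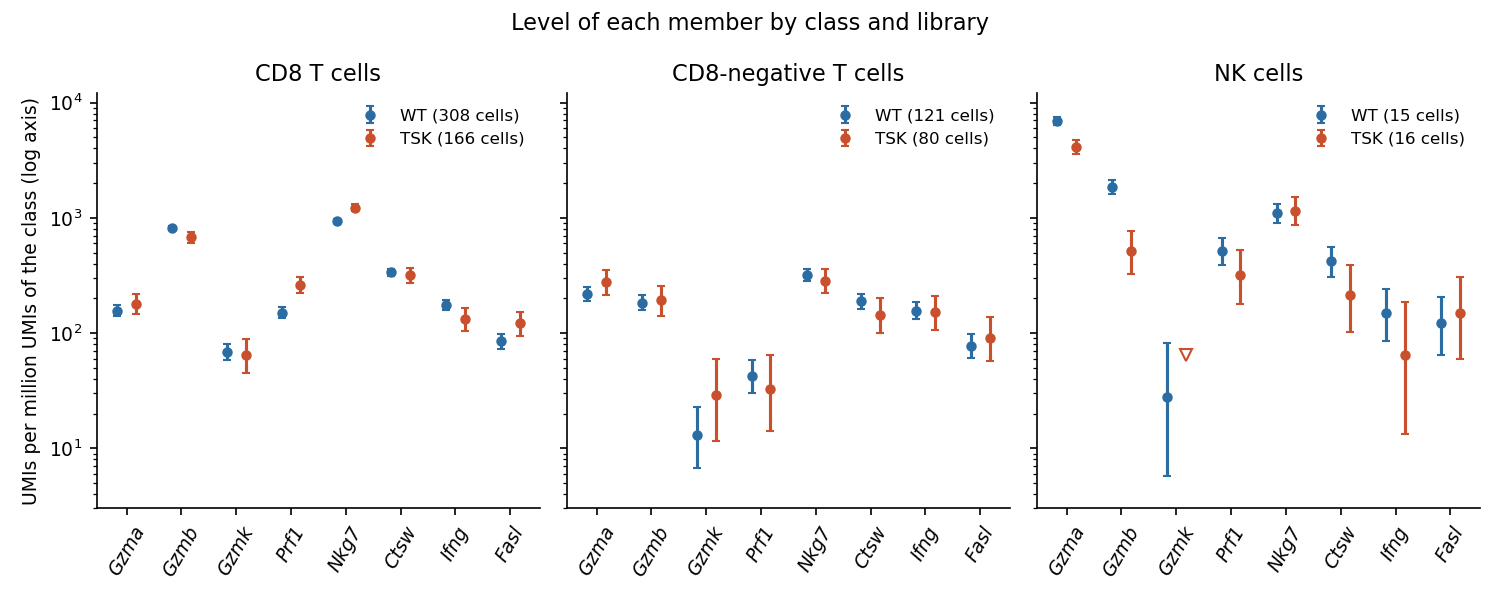
Level of each gene in CPM of the class (log axis) in CD8 T, CD8-negative T and NK cells, with exact Poisson 95% intervals. WT is blue and TSK orange, and the open triangle is the limit allowed by 0 UMIs (Gzmk in TSK NK cells, 64.1 CPM). Gzma stands highest in NK cells, at 6928 CPM in WT and 4121 CPM in TSK, and Gzmb and Nkg7 lead in CD8 T cells.

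The classes carried different parts of the program. Gzma set NK cells apart, with 6928 CPM in WT and 4121 CPM in TSK against 156 and 180 CPM in CD8 T cells, which is 44.3-fold and 22.9-fold more (34.8-fold and 37.7-fold without the top cell of each class). Over CD8 T cells, 1 of the 7 members with enough UMIs (at least 50 over the classes compared) was at least 2-fold higher in NK cells in both libraries, against 1.86% of all 1882 genes compared. The minimum is on the sum, so a gene can reach it through the class or library where it is high, and such counts are given as descriptions only. In WT alone Gzmb and Prf1 were also higher in NK than in CD8 T cells, 2.29-fold and 3.41-fold, whereas in TSK the ratios were 0.758 for Gzmb and 1.22 for Prf1. CD8 T cells stood above CD8-negative T cells in several granule genes. Gzmb was 4.44-fold higher in WT and 3.50-fold in TSK, Prf1 3.55-fold and 8.00-fold, and Nkg7 2.96-fold and 4.33-fold, so that 3 of 7 members passed 2-fold in both libraries (1.14% of 2455 genes did). Gzmk was 5.24-fold higher in WT but rested on 7 CD8-negative UMIs in TSK. Ctsw was 1.79-fold and 2.21-fold higher. For Gzma the order rested on single cells. Its log2 ratio of CD8 over CD8-negative T cells was −0.47 [−0.73, −0.22] in WT and −0.61 [−1.07, −0.15] in TSK, but 0.83 [0.48, 1.20] and 1.26 [0.53, 2.07] without the top CD8-negative cell, and 0.55 [0.19, 0.92] and 0.43 [−0.35, 1.29] without the top cell of each class. The secreted and surface effectors showed no such gap. Ifng in CD8 over CD8-negative T cells was at a ratio of 1.12 in WT and 0.865 in TSK, and Fasl at 1.10 and 1.34, all with intervals that include 1. NK cells stood at least 2-fold above CD8-negative T cells in both libraries for Gzma, Gzmb and Nkg7, the 3 members that reached 50 UMIs in both (2.14% of 841 genes).

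Within CD8 T cells the summed level of the 8 genes was close in the pair of libraries. It was 2728 CPM [2661, 2797] in WT and 2979 CPM [2840, 3123] in TSK, a log2 ratio of 0.13 [0.05, 0.20], while the median of all 5380 genes compared shifted by 0.14. Relative to that median the sum was −0.02. The median cell had 2038 CPM in WT and 2080 CPM in TSK. Prf1 was the member that differed most, with 151 CPM in WT and 263 CPM in TSK, a log2 ratio of 0.80 [0.52, 1.08]. It was the only 1 of 8 to pass 1.5-fold, a size that 23.6% of all genes passed in either direction and 16.5% upward. The cells overlapped widely, from 0 to 29 UMIs in WT and 0 to 15 in TSK with a median of 0 in both. With each cell thinned to 500, 1000 and 2000 UMIs Prf1 was at 0.63 [−0.46, 1.70], 0.52 [−0.15, 1.17] and 0.79 [0.33, 1.25], short of 1.5-fold at 1000 UMIs only. It was at 0.24 when cells with a UMI of the cycling list were left out.

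Over all CD8 T cells the other 7 members each lay within 1.5-fold. Nkg7 was at 941 CPM in WT and 1226 CPM in TSK (log2 0.38 [0.26, 0.50]), with UMIs in 296 of 308 and 151 of 166 cells. Fasl was at 85.0 and 121 CPM (0.51 [0.09, 0.91]), and at 0.74 [−0.74, 2.19] after thinning to 500 UMIs. On the lower side, Gzmb was at 815 CPM in WT and 676 CPM in TSK (−0.27 [−0.43, −0.11]), with 0 to 121 UMIs and 0 to 42 UMIs per cell. Gzmb was at 0.04 without cycling cells. Thinned to 500, 1000 and 2000 UMIs per cell it was at −0.56 [−1.08, −0.07], 0.04 [−0.29, 0.37] and −0.36 [−0.62, −0.11], and at −0.34 without the top cell of both libraries. Ifng was at 175 and 131 CPM (−0.42 [−0.79, −0.06]). Without thinning, and so at unlike depth, 123 of 308 WT and 29 of 166 TSK cells had a UMI of it. Thinned to 500, 1000 and 2000 UMIs it was at −0.57 [−1.66, 0.42], −0.26 [−0.98, 0.43] and −0.76 [−1.36, −0.19], the last past 1.5-fold. It was at −0.18 [−0.67, 0.28] without cycling cells, at −0.32 [−0.69, 0.04] without its top WT cell and at −0.63 [−1.03, −0.25] without its top TSK cell. Ctsw (337 and 318 CPM, −0.08) and Gzmk (68.3 and 64.0 CPM, −0.09) had intervals that include 0, and Gzmk was at 0.89 [−0.72, 2.50] after thinning to 500 UMIs. Gzma, at 156 and 180 CPM (0.20 [−0.13, 0.52]), came from few cells. Only 28 WT and 11 TSK CD8 T cells had it, 1 TSK cell held 46 of the 104 UMIs (44.2%), and without that cell the ratio turned to −0.63 [−1.05, −0.22]. Without cycling cells, where 279 WT and 24 TSK UMIs remained, it was at −1.35 [−2.02, −0.75]. After thinning to 500, 1000 and 2000 UMIs it was at −0.48, 0.35 and −0.12, each with an interval that includes 0.

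**Figure D2:**
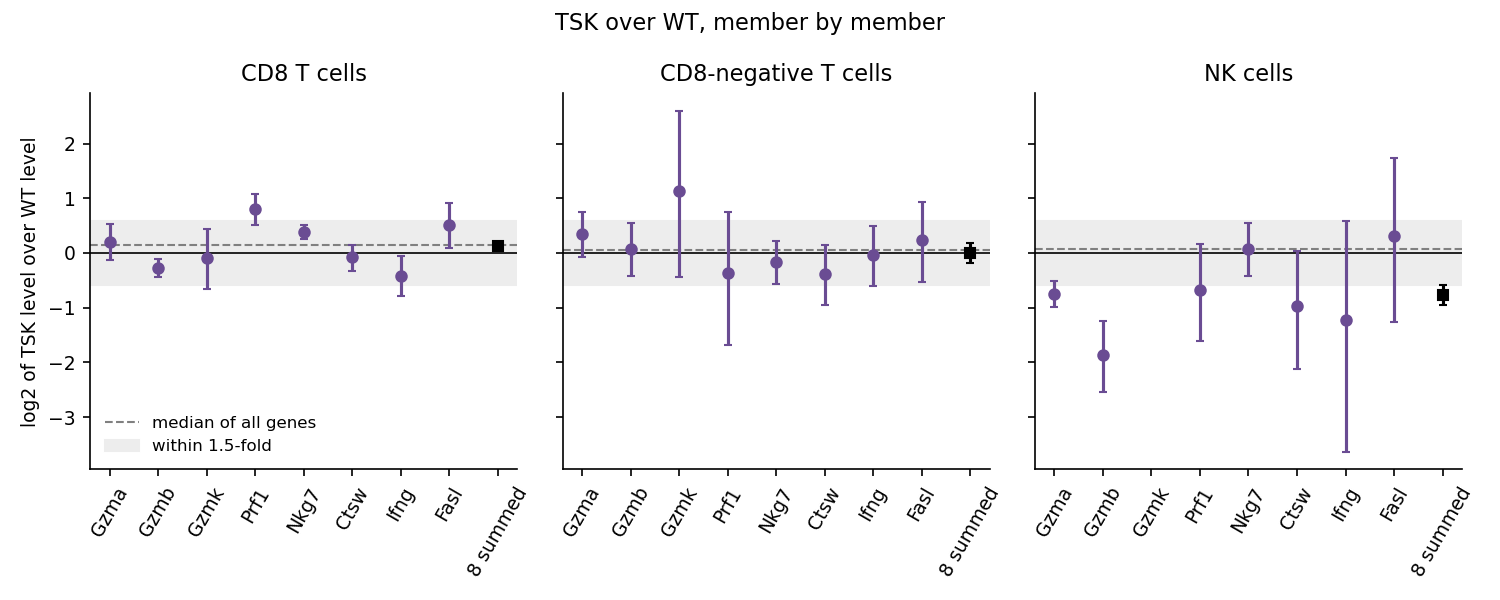
Log2 ratio of the TSK level over the WT level for each gene and for the 8 summed (black square) in 3 classes, with exact 95% counting intervals. The grey band spans 1.5-fold and the dashed line is the median of all genes. The sums are 0.13 in CD8 T cells, 0.00 in CD8-negative T cells and −0.77 in NK cells, and Gzmk in NK cells (0 UMIs in TSK) has no point.

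At matched depth the intervals of the share of CD8 T cells that carried a gene overlapped between the libraries for each of the 8. After thinning to 1000 UMIs (308 WT cells and 165 TSK cells, 1 TSK cell being too shallow), Nkg7 was found in 56.8% [51.1, 62.4] of WT and 63.6% [55.8, 71.0] of TSK cells, against 96.1% and 91.0% without thinning. Gzmb was found in 30.2% [25.1, 35.7] and 28.5% [21.7, 36.02] (56.2% and 43.4% without thinning). Ctsw was at 26.9% and 21.2%, Ifng at 13.6% [10.01, 17.98] and 7.27% [3.81, 12.4], and Prf1 at 10.7% [7.49, 14.7] and 15.8% [10.6, 22.2]. Fasl, Gzmk and Gzma followed, with 9.42%, 5.52% and 4.22% of WT cells and 12.7%, 7.27% and 4.85% of TSK cells. None of the members was seen in 16.9% of thinned WT and 14.5% of thinned TSK CD8 T cells. In fibroblast-marker cells, which should lack these genes and have median depths of 21594 and 10990.5 UMIs, the thinned share with any member was 0% in WT and 0.730% in TSK.

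Within 1 depth range Prf1 was again higher in TSK, while other members depended on single cells or on the range. Among CD8 T cells with 2000 to under 5000 UMIs (49 WT and 132 TSK cells), the sum of the 8 was at a log2 ratio of 0.13 [−0.03, 0.29], Prf1 at 1.32 [0.56, 2.16], Fasl at 1.07 [0.21, 2.02] and Ifng at −1.18 [−1.79, −0.58]. These 3 genes kept their sign and stayed past 1.5-fold without the top cell of either library. Gzmb was at −0.34 [−0.69, 0.02], and at 0.04 without its top WT cell. Gzma was at 1.26 [0.26, 2.41], and at 0.52 without its top TSK cell. Among cells with 5000 to under 10000 UMIs (219 WT and 19 TSK), the sum was at 0.71 [0.59, 0.84], and at 0.48 without the top TSK cell. There Prf1 was at 1.88 [1.46, 2.29] and Gzmb at 1.06 [0.83, 1.27] (1.58 and 0.77 without the top TSK cell), Fasl at −0.23 [−1.32, 0.69] and Ifng at −0.13 [−0.84, 0.51]. Gzma was at 0.91 [0.46, 1.34] there, and at −2.37 [−4.00, −1.13] without 1 TSK cell that held 46 of the 51 UMIs.

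Gzmb and Prf1 differed by larger ratios between kinds of CD8 T cells than between the libraries. Cells with a UMI of Pdcd1 or Havcr2 and none of Tcf7 (114 WT and 75 TSK) had Gzmb at 1321 CPM in WT and 932 CPM in TSK, against 165 and 50.3 CPM in cells with Tcf7 alone (56 and 20), a log2 ratio of 3.001 [2.65, 3.38] and 4.21 [2.65, 6.50]. Prf1 was at 277 and 441 CPM against 26.7 and 67.0 CPM, a log2 ratio of 3.38 [2.51, 4.395] and 2.72 [1.33, 4.62]. Gzma was at 166 and 287 CPM in the cells with Pdcd1 or Havcr2 (98.5 and 136 CPM without the top cell of both libraries). The Tcf7 cells had 4 UMIs of Gzma in WT (9.71 CPM) and 0 in TSK, which allows up to 50.3 CPM. In TSK all 3 reached the minimum of 50 UMIs through the cells with Pdcd1 or Havcr2. They were at least 2-fold higher in both libraries, as were 3.21% of 1058 genes, and nothing is read from that count. Nkg7 differed less, by a log2 ratio of 0.76 in WT and 1.02 in TSK. Ifng was higher by 1.16 [0.67, 1.68] in WT, and by 1.55 [−0.09, 3.88] in TSK. Gzmk, the granzyme known from less differentiated cells, went the other way in value, at −0.33 [−0.999, 0.37] and −0.74 [−2.46, 1.35], with both intervals including 0. Median depth was similar within a library, at 7578 and 6707.5 UMIs in WT and 3571 and 3155.5 in TSK.

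**Figure D3:**
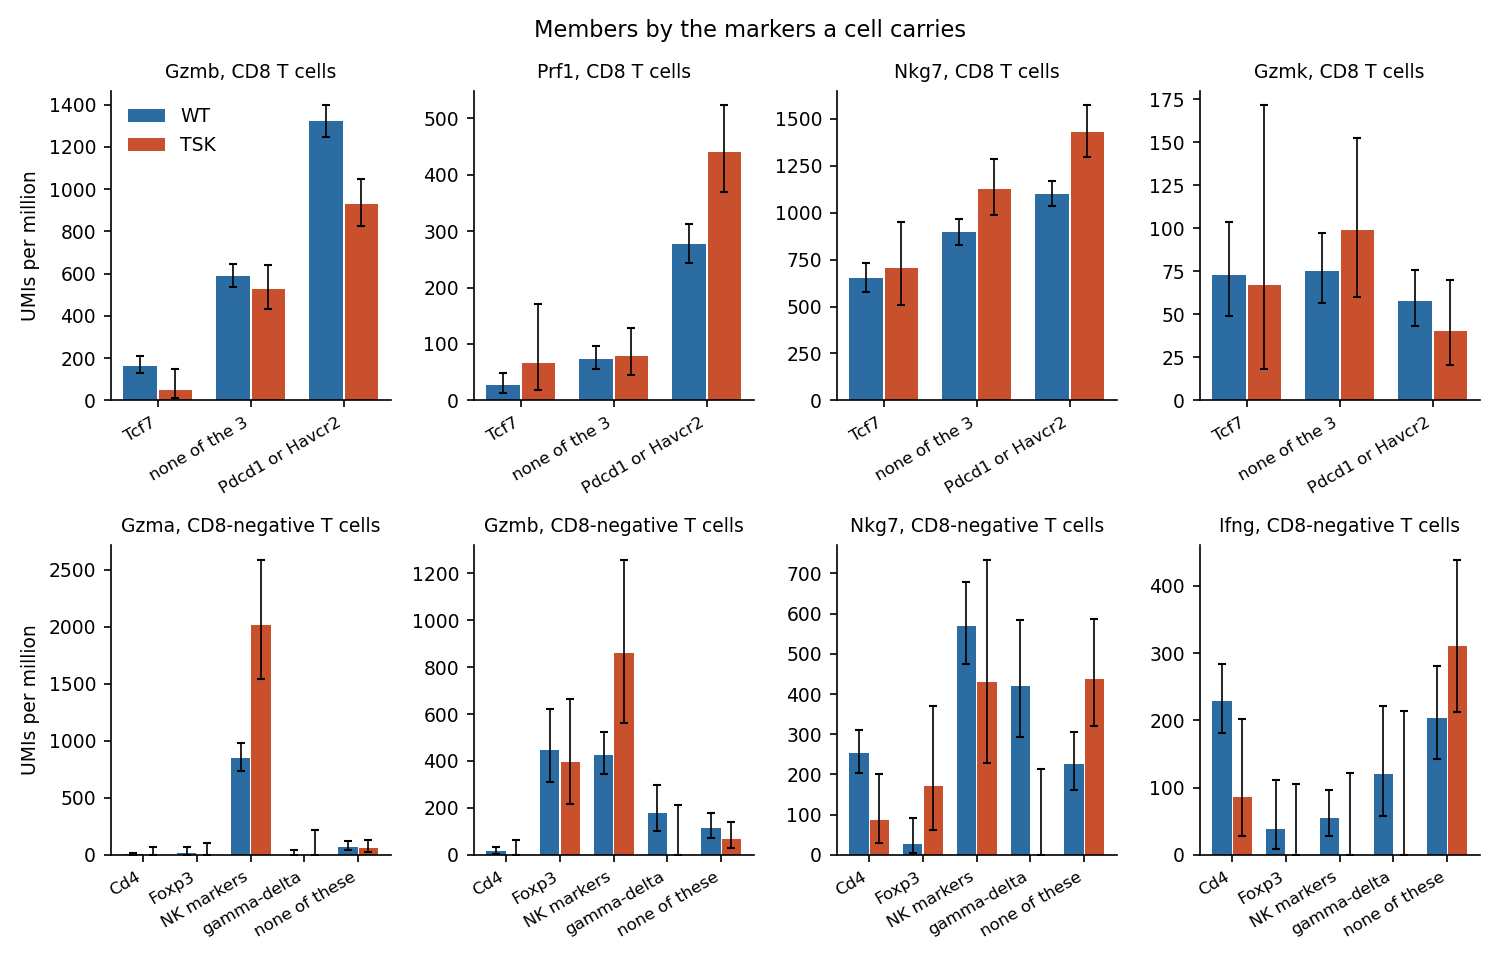
Level in CPM (bars, with exact Poisson 95% intervals) of 4 genes in CD8 T cells split by Tcf7, Pdcd1 and Havcr2 UMIs (top) and of 4 genes in CD8-negative T cells split by Cd4, Foxp3, NK marker and gamma-delta receptor UMIs (bottom), WT in blue and TSK in orange. Gzmb and Prf1 are highest in cells with Pdcd1 or Havcr2 (1321 and 277 CPM in WT), Gzma in CD8-negative T cells with NK markers, and Ifng is low in cells with Foxp3.

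Prf1 and Gzmb shared cells. Of the 113 WT CD8 T cells with Prf1, 87 also had Gzmb (77.0%), and of the 50 TSK cells 34 did (68.0%), while 56.2% and 43.4% of all CD8 T cells had Gzmb. Across cells the correlation of their levels was r = 0.43 over 308 WT cells and 0.41 over 166 TSK cells, cells of 1 library that share its depth range. Of the few cells with Gzma, 26 of 28 in WT and 9 of 11 in TSK also had Gzmb. Ifng and Gzmb had r = 0.10 and 0.01, and Ifng and Fasl −0.02 in both. Cells with at least 3 UMIs of the cycling list (Mki67, Top2a, Birc5, Cdk1, Ccnb2), 17 in WT and 9 in TSK, had 1304 and 1232 CPM of Gzmb against 689 and 708 CPM in cells with none, a log2 ratio of 0.92 [0.71, 1.12] and 0.80 [0.36, 1.22]. A single cell held 121 of the 241 WT UMIs and another 41 of the 59 TSK UMIs of Gzmb in these cycling cells, and without them the levels were 763 and 451 CPM. Prf1 was at −0.04 and 0.02, and the sum of the 8 was at 0.12 and 0.11.

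In CD8-negative T cells the 8 genes summed to 1196 CPM [1126, 1269] in WT and 1199 CPM [1066, 1345] in TSK, a log2 ratio of 0.00 [−0.19, 0.19]. None of the 6 members with at least 50 UMIs passed 1.5-fold, which 21.9% of 3207 genes did. Nkg7 was at 318 CPM in WT and 283 CPM in TSK, Ctsw at 188 and 144 CPM, Gzmb at 184 and 193 CPM, Ifng at 156 and 152 CPM, and Fasl at 77.1 and 90.3 CPM. Prf1 had 39 and 8 UMIs (42.4 and 32.9 CPM) and Gzmk 12 and 7 UMIs. The Gzma level of 217 and 275 CPM was set by single cells. A single WT cell had 120 of the 200 UMIs and a single TSK cell 49 of the 67, and 12 WT and 3 TSK cells had any. The sum depended on the same cells, at 0.20 without the top WT cell and −0.38 without the top TSK cell, so that its direction rests on them. It was −0.80 [−1.09, −0.51] in cells of 2000 to under 5000 UMIs (24 WT and 58 TSK) and 0.98 [0.56, 1.38] in those of 5000 to under 10000 UMIs (78 WT and 5 TSK), but −0.29 without the top WT cell of the first range and 0.41 without the top TSK cell of the second. It was −0.64 when cells with markers of another lineage were kept, a setting that need not hold T cells alone.

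The class held cells of several kinds, and the members split between them. The kinds were named at full depth, so a missed marker can move a cell to another kind, and TSK cells were shallower. The 8 genes summed to a log2 ratio of −0.97 [−1.69, −0.33] in cells with Cd4 and no Foxp3 and −3.22 [−6.29, −1.33] in cells with a gamma-delta receptor UMI, and to −1.18 and −3.61 without the top cell of both libraries. In cells with NK markers the sum was at 0.70 [0.40, 0.98], but at −0.42 [−0.87, −0.00] without 1 TSK cell that held 72 of the 122 UMIs. In cells with Foxp3 it was at 0.37 [−0.40, 1.11], and at −0.07 without the top TSK cell. Cells with at least 2 NK marker UMIs and no Cd4 or Foxp3 (25 in WT and 7 in TSK) held 185 of the 200 WT and 61 of the 67 TSK UMIs of Gzma, with Gzma at 850 CPM in WT and 2016 CPM in TSK, Gzmb at 427 and 859 CPM and Prf1 at 138 and 165 CPM. The TSK levels there rested on few cells. Without the top TSK cell Gzma was at 446 CPM and Gzmb at 334 CPM, both below WT, and without the top cell of both libraries Gzma was at 315 CPM in WT and 446 CPM in TSK and Gzmb at 305 and 334 CPM. Helper cells, with a UMI of Cd4 and none of Foxp3 (48 and 17), had Ifng at 228 CPM [182, 283] and 86.4 CPM [28.1, 202] and Fasl at 103 and 69.1 CPM, but 5 and 0 UMIs of Gzmb and 1 and 0 each of Gzma and Prf1. In WT their Ifng was 2.05 higher on the log2 scale than in the cells with NK markers [1.17, 3.06]. In TSK it was 5 UMIs against 0. Cells with a UMI of Foxp3, the factor of regulatory T cells (10 in each library), had Gzmb at 447 CPM [311, 621] in WT and 397 CPM [217, 666] in TSK, beside 1 UMI of Gzma in WT and 0 in TSK, and 0 and 2 UMIs of Prf1. A single cell held 18 of the 35 WT and another 8 of the 14 TSK UMIs of that Gzmb. Ifng in them was 3 and 0 UMIs. Cells with a UMI of a gamma-delta T cell receptor gene and none of the markers above (9 and 6, at median depths of 8705 and 2745.5 UMIs) had 90 UMIs of the 8 genes in WT (1080 CPM [869, 1328]) and 2 in TSK (116 CPM [14.0, 418]). Of these Nkg7 had 35 and 0 UMIs, Ctsw 20 and 1, and Gzmb 15 and 0, with 14 of the 15 in 1 cell. Cells with none of these markers, the gamma-delta genes included (29 and 40), had Ifng at 203 and 311 CPM and Nkg7 at 225 and 438 CPM, at median depths of 5776 and 2465.5 UMIs.

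NK cells had the highest summed level, at 11124 CPM [10501, 11773] in 15 WT cells and 6533 CPM [5822, 7308] in 16 TSK cells, a log2 ratio of −0.77 [−0.95, −0.59]. Gzma, Gzmb, Prf1 and Ctsw were each at least 1.5-fold lower in TSK, as were 14.5% of 373 genes. Gzmb, Prf1 and Ctsw reached the minimum of 50 UMIs wholly or mostly through the WT cells, where they are high, so nothing is read from the count. Gzma was at 6928 CPM in WT and 4121 CPM in TSK (−0.75 [−0.99, −0.52]), with 0, 19 and 304 UMIs in the lowest, median and highest WT cell and 0, 10 and 35 in TSK. A single WT cell held 304 of the 743 UMIs, the median cell had 3672 CPM in WT and 3669 CPM in TSK, and the range of the TSK cells lay within that of the WT cells. Without that cell Gzma was at −0.12 [−0.37, 0.13]. Prf1 was at 513 and 320 CPM (−0.68), and at −0.03 without its top WT cell. Ctsw was at 420 and 214 CPM (−0.97), and at −0.44 without its top WT cell. These 3 values thus lay within 1.5-fold without 1 WT cell each. With the top cell of both libraries left out, Ctsw was at −0.92 [−2.48, 0.38], past 1.5-fold, Prf1 at −0.50 [−1.75, 0.60] and Gzma at −0.23 [−0.50, 0.04]. The sum was −0.32 without the WT cell with the most UMIs and −0.46 without the top cell of both libraries. It was −3.17 when cells with markers of another lineage were kept. That setting puts no limit on other markers, so a cell of another lineage with 2 NK marker UMIs is counted too. The value is thus not a level of NK cells alone. By depth, each range holding part of these few cells, the sum was at −0.95 [−1.34, −0.54] from 2000 to under 5000 UMIs. Gzma was at −1.01 [−1.49, −0.52] in that range. The sum was at −1.20 [−1.53, −0.88] from 5000 to under 10000 UMIs. From 500 to under 2000 UMIs it was at 3.23 [0.70, 8.55], from 1 WT and 72 TSK UMIs.

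Gzmb was lower in TSK with or without its top cells. It was at 1865 CPM [1615, 2142] in WT and 512 CPM [328, 762] in TSK, a log2 ratio of −1.86 [−2.54, −1.25]. The lowest, median and highest cell had 0, 4 and 45 UMIs in WT and 0, 0 and 5 in TSK, and 9 of 15 and 7 of 16 cells had any. Without the top WT cell it was at −1.62 [−2.31, −0.998], without the top cell of both libraries at −1.90 [−2.67, −1.21], and in cells thinned to 500, 1000 and 2000 UMIs at −1.47 [−3.31, 0.11], −1.98 [−3.15, −0.94] and −2.63 [−4.31, −1.31]. Nkg7 was level, at 1100 and 1153 CPM (0.07 [−0.42, 0.54]). Ifng (16 and 3 UMIs), Fasl (13 and 7) and Gzmk (3 and 0) were too few to compare at this depth. In the same WT cells Gzmc, another granzyme, had 264 UMIs, 250 of them in 1 of 3 cells, and 0 UMIs in TSK, which allows up to 64.1 CPM there. The chemokine gene Xcl1 had 61 and 3 UMIs.

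**Figure D4:**
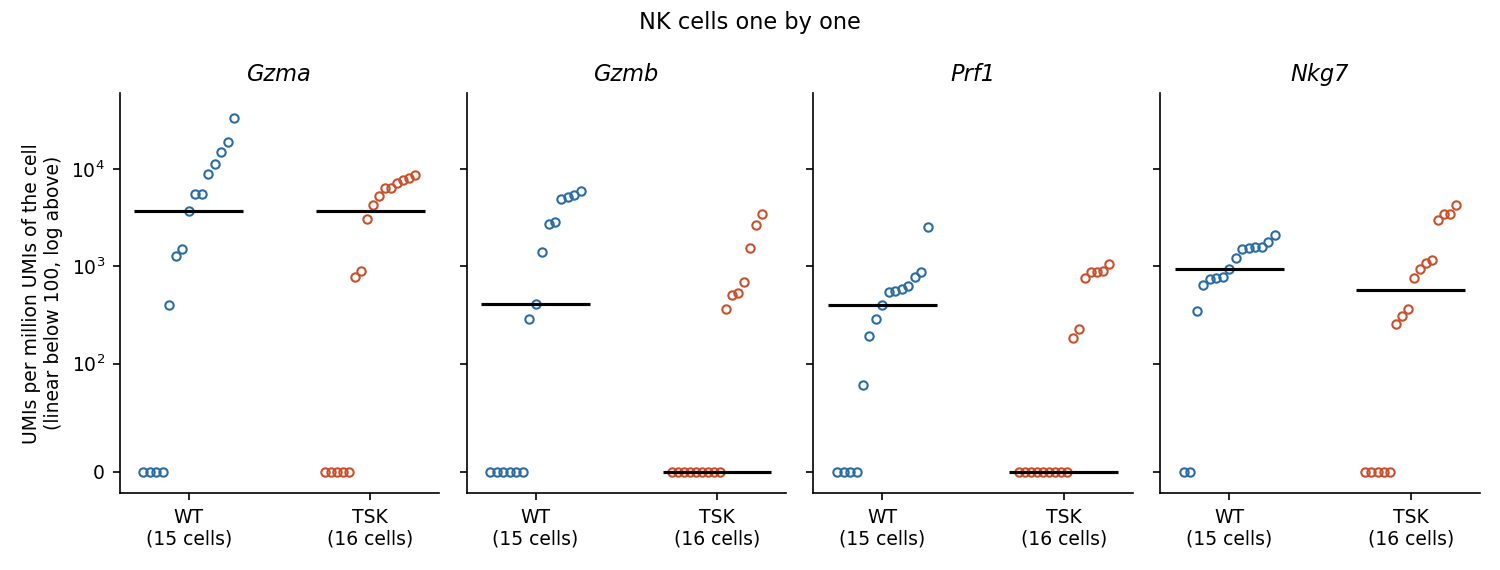
Level of 4 genes in each NK cell, in CPM of the cell (linear below 100, logarithmic above), for 15 WT cells (blue) and 16 TSK cells (orange), with the median as a black line. The Gzma medians are 3672 CPM in WT and 3669 CPM in TSK with 1 WT cell at 33271 CPM. The Gzmb median is 414 CPM in WT and 0 in TSK. Median depth was 7037 UMIs in WT and 2211 in TSK, so these medians are not matched for depth and low levels are missed more in TSK.

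Other genes of the same pathways were counted from lists, at least 50 UMIs and past 1.5-fold. In CD8 T cells, 12 of 14 genes of granule build and release were measured, of which 2 were higher and 0 lower in TSK, with a median log2 ratio of 0.17. Of 8 other effector ligands and chemokines, 1 was higher and 2 lower. Tnf (99 and 9 UMIs, −1.49 [−2.66, −0.50]), which encodes the inflammatory cytokine, and Xcl1, which attracts cross-presenting dendritic cells (−1.03 [−2.21, −0.02]), were lower, and Spp1 (osteopontin, made in quantity by macrophages) was higher (2.85 [2.36, 3.35], 23.8 and 171 CPM). Of 14 transcription factors, 4 were higher and 3 lower, with Tox, a factor of exhausted T cells, at 1.16 [0.65, 1.66] and Nr4a2, induced by T cell receptor signals, at −1.10 [−1.35, −0.86]. Of 7 inhibitory receptors, 2 were higher and 0 lower, among them Havcr2 (44.9 and 91.6 CPM, 1.03 [0.52, 1.52]). The background for these counts was 16.5% of genes higher and 7.10% lower.

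In CD8-negative T cells, 1 of 8 measured granule genes was higher, Rab27a, a GTPase that docks granules (1.09 [0.45, 1.71]), and 1 lower in value, Ctsc, the protease that activates granzymes (50 and 7 UMIs, −0.92 [−2.30, 0.23]). Of 6 effector ligands and chemokines 3 were higher, Spp1 (2.23) and Xcl1 (0.96) among them, and 0 lower. Of 13 transcription factors 2 were higher, Id2 (0.86 [0.50, 1.20]) among them, and 1 lower, Tbx21 (−0.68 [−1.31, −0.09]). Of the inhibitory receptors 2 of 3 were higher, and Lag3 had 49 and 5 UMIs (−1.37 [−3.06, −0.05]). Gzmc was the 1 other granzyme measured there, with 50 UMIs in 5 WT cells, 24 of them in 1 cell, and 2 UMIs in 1 TSK cell (−2.73 [−5.81, −0.80]). Ctsc, Lag3, Gzmc and Tbx21 reached the minimum of 50 UMIs wholly or mostly through their WT UMIs. So did Tnf and Xcl1 in CD8 T cells and the lower genes named below for NK cells. A low TSK value of these genes is a description only. The background was 11.2% higher and 10.7% lower. In NK cells the lists held 0 to 6 measured genes each, against a background of 21.2% higher and 14.5% lower. Of 4 effector ligands and chemokines 0 were higher and 3 lower, namely Ccl4 (−2.13 [−3.07, −1.30]), Xcl1 (−3.15) and Spp1. Spp1 was at 653 and 299 CPM (−1.13 [−2.07, −0.29]), the other direction from both T cell classes. Of 6 transcription factors 1 was higher and 2 lower, Tbx21 (−1.33 [−2.62, −0.23]) and Id2. Of 3 granule genes 1 was higher and 1 lower, Srgn (−0.65 [−1.29, −0.04]). The 1 other granzyme measured, Gzmc, was lower. Serpinb6b, of the serpin family that inhibits granzymes, was higher in TSK (224 and 576 CPM, 1.37 [0.52, 2.22]), as was Stat4, the factor of interleukin 12 signals (1.28 [0.70, 1.86]), and as was Ifngr1, the ligand-binding chain of the Ifng receptor (606 and 982 CPM, 0.70 [0.12, 1.26]). Id2, needed for NK cell development, had 58 and 4 UMIs (−2.66 [−4.59, −1.23]).

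The genes that answer Ifng and Fas ligand were read in the cells around the lymphocytes, from a list of 13 receptors and targets, of which those named here were picked after their values were seen. Their median log2 ratio was below 0 in 4 classes around them, at −0.57 in cancer cells, −0.32 in macrophages and monocytes, −0.85 in neutrophils and −1.07 in endothelial cells, where the medians of all genes shifted by 0.13, 0.25, 0.09 and 0.31. In cancer cells 5 of 11 measured genes were at least 1.5-fold lower (14.1% of 12273 genes were) and 1 was higher, the Fas adaptor gene Fadd (21.1% of genes were higher). The GTPase gene Gbp2 was at 142 CPM in WT and 54.0 CPM in TSK (−1.40 [−1.55, −1.23]), Cd274, which encodes PD-L1, at 21.6 and 6.998 CPM (−1.62), and the factor Irf1 at 87.7 and 39.3 CPM (−1.16). Cxcl9 (−0.32) and Cxcl10 (−0.57) stayed within 1.5-fold. In macrophages and monocytes 3 of 12 were lower (5.83% of 8642 genes), namely Irf1 (−0.95), Gbp2 (−1.04) and Ciita, which switches on MHC class II (−1.15).

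Neutrophils had 7 of 8 measured genes lower (29.8% of 2185 genes), with Gbp2 at 1767 CPM in WT and 257 CPM in TSK (−2.78 [−3.09, −2.48]) and Cd274 at 1920 and 468 CPM (−2.04), while Cxcl10 was higher (0.95 [0.16, 1.86], as were 38.9% of genes). Endothelial cells had 6 of 10 lower (12.0% of 4881 genes), with Gbp2 at 511 and 38.1 CPM (−3.75 [−4.39, −3.17]), Irf1 at 302 and 68.5 CPM (−2.14) and Cxcl9 at 1036 and 254 CPM (−2.03), and Ifngr2 was higher (0.83 [0.11, 1.56], as were 33.0% of genes). Cancer marker UMIs were found in 50.9% of TSK against 10.1% of WT endothelial cells, 23.7% against 2.70% of neutrophils, and 30.2% against 7.08% of macrophages and monocytes. In the cells with none of them Gbp2 was still at −3.06 in endothelial cells, −2.25 in neutrophils and −0.93 in macrophages and monocytes, but the medians of the list were nearer 0. Over the same genes they were −0.46 against −1.29 in all endothelial cells (9 genes), −0.58 against −1.20 in all neutrophils (6 genes) and −0.23 against −0.32 in all macrophages and monocytes (12 genes), where the medians of all genes in the cells without cancer markers were 0.21, −0.11 and 0.16. In these cells 4 of 9, 3 of 6 and 3 of 12 measured genes were lower, beside 14.5%, 25.7% and 6.80% of all genes. Cxcl10 was then higher in endothelial cells (1.69, as were 26.6% of genes) and neutrophils (1.47, as were 24.0%). In the lymphocytes themselves the median of the list was −0.04 in CD8 T cells (1 of 9 higher and 1 lower), 0.02 in CD8-negative T cells (0 of 8 higher and 1 lower) and 0.53 in NK cells (1 of 2 higher and 0 lower). Whether these values follow the smaller number of lymphocytes was not tested.

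**Figure D5:**
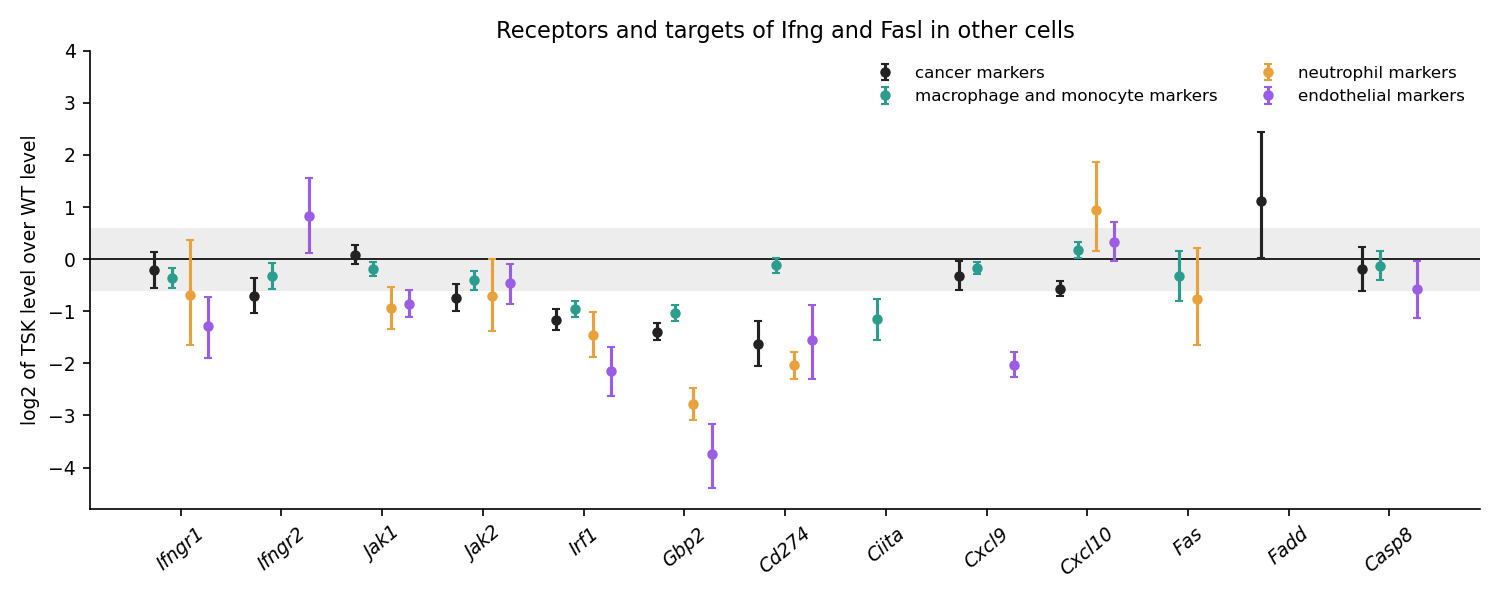
Log2 ratio of the TSK level over the WT level, with exact 95% counting intervals, for receptors and targets of Ifng and Fas ligand in cells named by cancer, macrophage and monocyte, neutrophil and endothelial markers. Genes with at least 50 UMIs in a class are shown and the grey band spans 1.5-fold. Gbp2 and Irf1 lie below the band in all 4 classes, and Cxcl10 lies above it in neutrophils (0.95).

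The pattern of the 8 genes over cells was also searched for in other genes, over 18 groups (classes by library). Of 4556 genes with at least 100 UMIs in the lymphocyte classes, the highest Pearson correlations of log2(CPM + 10) with the members' sum were those of Il2rb (r = 0.980), Klrc2 (0.980), Tbx21 (0.976), Ms4a4b (0.972) and Lck (0.972). Il2rb encodes a receptor chain for interleukins 2 and 15, Klrc2 an NK receptor, Tbx21 the factor T-bet, Ms4a4b a membrane protein of T cells and Lck the kinase of T cell receptor signals. Among the members themselves r with the sum ran from 0.726 for Gzmk to 0.985 for Nkg7, but each is part of that sum. The groups share libraries and depth, so these values describe likeness only.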

How the data were processed

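The deposited values are UMI counts for each gene in each barcode, not normalized, which the authors made with Cell Ranger (7.1.0 in the matrix headers, 7.1.1 per the labels) against mm10. The labels name the 3′ v2 protocol of 10x Genomics. Read alignment and barcode calling were the authors'. Kept cells had at least 200 genes, at least 500 UMIs and at most 10% mitochondrial UMIs, and the upper limits of the study (10000 UMIs, 10000 genes) were used as an alternative. Barcodes found in both libraries were left out.

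Classes were named from marker UMIs, none of them a member. T cells had at least 3 UMIs of Cd3e, Cd3d, Cd3g, Trac and Trbc2, at least 1 of them other than Trbc2, and at most 4 UMIs of markers of other lineages. NK cells had at least 2 UMIs of 9 NK markers (Gpr141 was left out after its UMIs were seen in cells of other lineages) and 0 of Cd3e, Cd3d, Cd3g and Trac. Other classes needed at least 5 UMIs of 1 marker list and at least 2 times those of the next. No doublet caller was run, and cells with T markers and more than 4 UMIs of another lineage were kept out of the T classes. UMIs were summed per class and library and given as CPM of the class, with exact Poisson intervals. Ratios had exact conditional intervals and shares exact (Clopper-Pearson) binomial intervals, all 95% and for counting error only. Where 0 UMIs were found, 3 counts set the limit. Genes needed at least 50 UMIs over the libraries or classes compared. Cells were named at full depth and only then thinned to 1000 UMIs with a fixed seed, and 500 and 2000 were tried. The total depth was 21225411 (WT) and 48296765 UMIs (TSK). The text names all 8 members and the 3 largest and 3 smallest ratios among pathway genes in each class. Further pathway genes are named in CD8-negative T cells and NK cells. Also named are the 5 genes most like the sum, and genes of the Ifng and Fas ligand list in other classes. The members, lists and motifs were chosen with earlier results of these data known. Procedures were tested on simulated class sums drawn as independent Poisson counts. These do not hold UMIs gathered in single cells, so the intervals were not tested for that. Tables were read with pandas 2.3.3 and numpy 2.4.6 under Python 3.11.15, intervals came from scipy 1.17.1, and plots from matplotlib 3.10.9. Gene positions came from GENCODE and promoters from RefSeq. A gene of the Ifng and Fas ligand list is not reported here and was left out of its counts and medians.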

Additional observations from a re-analysis of the deposited data

Results flagged for a closer look

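The summed level of the 8 genes went opposite ways in the classes, with TSK above WT by 0.13 (log2) in CD8 T cells, and a log2 ratio of −0.77 in NK cells. With 1 library per genotype the difference between these ratios was not tested. The shift of the median gene in CD8 T cells was 0.14, and the NK value was −0.32 without the WT cell with the most UMIs.

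Gzmk UMIs were found outside the lymphocytes. TSK cells with endothelial markers had 22.8 CPM of it, from 15 UMIs in 8 of 55 cells, against 1 UMI in 69 WT cells. The other members in those TSK cells came to 1 UMI of Gzma and 2 of Nkg7. Cancer marker UMIs were in 50.9% of these TSK cells and in 10.1% of the WT cells. No background share was estimated, and whether the Gzmk UMIs came from mixed droplets was not tested. After thinning to 1000 UMIs, 0% of the cells had Gzmk in both libraries.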

How the results depend on the processing

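Values are log2 ratios of TSK over WT, and in each case the cause was not tested. The CD8 T cell sum (0.13) was 0.027 with cells of another lineage's markers kept, −0.016 when scaled by the median gene ratio, −0.028 with Nkg7 left out, −0.016 after thinning to 500 UMIs (0.11 at 1000 and 0.097 at 2000) and 0.048 without the top TSK cell. The CD8-negative sum (0.00) was −0.64 with such cells kept, 0.26 without cycling cells, 0.28 after thinning to 500 UMIs, −0.46 in cells with Cd4 or Foxp3, 0.20 without the top WT cell and −0.38 without the top TSK cell. The NK sum (−0.77) was −1.16 under the study's upper limits, −3.17 with such cells kept, −0.50 with all 10 NK markers, −0.58 both without cycling cells and after thinning to 2000 UMIs, and −0.32 without the top WT cell. With such cells kept there is no limit on markers of other lineages, so the classes need not hold T or NK cells alone. Over all cells (−3.02) the sum was −1.74 under the study's limits, −2.79 with shared barcodes kept, −3.14 from 2000 UMIs and −2.78 over all barcodes. Gzmb in CD8 T cells (−0.27) was 0.038 without cycling cells and 0.045 after thinning to 1000 UMIs, but −0.56 and −0.36 after thinning to 500 and 2000. Of 57 alternative values of the sums 36 lay within the counting interval of the value reported and 11 had the other sign, 3 of them where that interval leaves out 0, and of 347 for single members 296, 46 and 2. Of 144 shares of cells 71 stayed within it and 73 moved. Leaving out top cells, thinning of levels (3 depths), all 10 NK markers and the alternatives over all cells were chosen after seeing the data. So were 2 more settings that enter these counts. They are NK cells with up to 2 T cell receptor UMIs, and CD8-negative T cells without those of 2 or more NK marker UMIs. No paired analysis was possible because each genotype has 1 library. That number, the 15 and 16 NK cells and the lower TSK depth limit what can be compared.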
